A study of Mus musculus with 12 samples.

Results

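The nuclear genes of oxidative phosphorylation were taken from 12 gene expression tables by name: symbols starting with Nduf, Sdhaf, Uqcr, Cox4 to Cox8 or Atp5, and Sdha to Sdhd, with names holding -ps left out. The rule found 95 of the 39174 gene identifiers in the tables. The expression tables came from mRNA sequencing of motoneurons in primary culture, taken from FVB mice, with 3 libraries for each of 4 groups. Every culture carried the human SMN2 transgene. The control groups were wild type at the mouse Smn locus (Smn+/+;SMN2) and the SMA groups, named after spinal muscular atrophy, were null for it (Smn-/-;SMN2). Each genotype was cultured without drug or with R-Roscovitine at 0.5 µM, a compound that inhibits cyclin-dependent kinases; the labels give neither the length of the treatment nor the age of the animals, and the extracts are of whole cultures.

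Oxidative phosphorylation passes electrons from NADH through complex I, or from succinate through complex II, to complex III and on to complex IV, which reduces oxygen. Complexes I, III and IV pump protons out of the mitochondrial matrix, and complex V, the ATP synthase, uses their return to make ATP. Most subunits are encoded in the nucleus and imported, while a smaller number are encoded by mitochondrial DNA, and neurons draw on this pathway for most of their ATP. The 95 genes comprised 38 named as complex I subunits and 7 Ndufaf assembly factors, 4 complex II subunits and 2 Sdhaf assembly factors, 8 complex III, 18 complex IV and 18 complex V genes. The name rule also takes in Atp5s and Atp5sl, which are not structural subunits of the synthase, and Atp5l2, which GENCODE M21 lists as a processed pseudogene.

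The values are FPKM, fragments scaled to transcript length and library size, so levels can be compared between genes. For 19 of the genes, which have near-identical copies described below, the level and its rank are less certain. The depth estimated from the low values was 19.5 to 28.7 M reads per library, with a mean of 26.5 ± 1.99 M (SD, n = 6) in control and 22.2 ± 2.04 M (SD, n = 6) in SMA libraries. Smn1, the targeted gene, lay between 30.9 and 51.2 FPKM in the 6 control libraries and between 5.04 and 8.58 FPKM in the 6 SMA libraries, lower in every library labelled SMA. Of 9 motoneuron markers, 8 were in the tables, and Chat, Isl1, Isl2, Lhx3, Mnx1 and Slc5a7 were below 1 FPKM in every library. Of the 2 others, Prph reached at most 1.71 FPKM and Chodl read 7.32 to 18.1 FPKM in control and 3.54 to 6.23 FPKM in SMA libraries. The 7 general neuron markers summed to 647 to 1206 FPKM. Astroglia markers, 8 of 8 tested, summed to 231 to 345 FPKM in control and 336 to 1108 FPKM in SMA libraries. Smooth muscle markers, 4 in number, summed to 2049 to 3607 FPKM. Acta2 read 1428 to 2625, Tagln 603 to 951.5 and Cnn1 18.7 to 32.2 FPKM. Myh11, the remaining one, was below 1 FPKM in every library. The labels do not state whether the 3 libraries of each group are separate cultures, and p-values thus measure the spread between libraries, which may be technical.

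The genes together took 2.10% to 2.63% of the summed FPKM of a library, and 89 of the 95 reached 1 FPKM in at least 3 libraries, the filter for testing. The median of the 89 gene means was 125 FPKM, against a median level of 9.88 to 10.8 FPKM per library over the 14982 genes tested. Complex IV genes had the highest median of gene means, at 234 FPKM, followed by complex V at 179, complex III at 150, complex I at 112 and complex II at 66.7 FPKM. Assembly factors stood far below the subunits they help to build, with a median of 12.2 FPKM for the 7 Ndufaf genes and 15.2 FPKM for the 2 Sdhaf genes. Cufflinks' own interval reached a median of 5.52% of the value to each side in these genes, and covers counting and assignment error only.

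**Figure D1:**
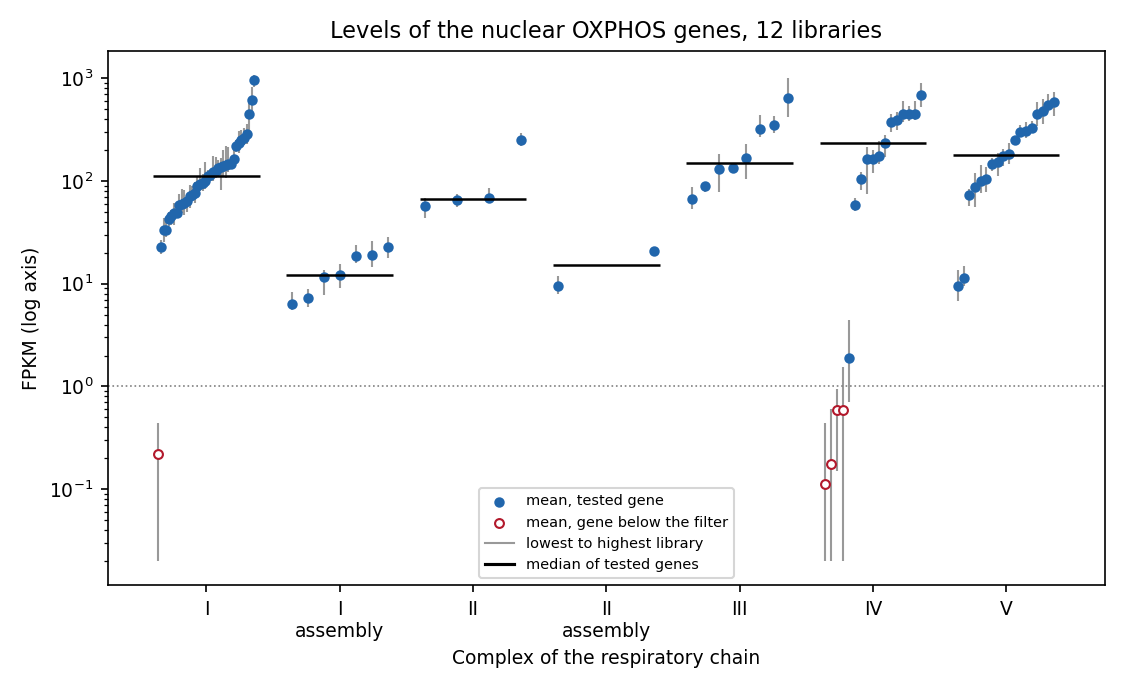
Each point is the mean FPKM of 1 gene over 12 libraries on a log axis, by complex, with a grey line from its lowest to its highest library (lines that reach 0 stop near the bottom of the axis) and a black line at the median of the tested genes. Most subunits lie between about 20 and 1000 FPKM, the assembly factors near 10 FPKM, and open circles mark genes below the filter; Cox8c, listed at 0 in every library, is not drawn.

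Within complex I the levels ran from 22.9 FPKM for Ndufs1 to 956 FPKM for Ndufa4. Ndufa4 was the most abundant of all 95 genes and is known to work as a subunit of complex IV in spite of its name. In the catalytic arm the levels lay on both sides of the complex's median: the flavin-binding Ndufv1 had 33.4 FPKM and its partner Ndufv2 had 284 FPKM. Ndufs3, Ndufs7 and Ndufs8, subunits of the same arm, lay between 94.3 and 133 FPKM, and Ndufs4, an accessory subunit whose loss causes Leigh syndrome, had 42.6 FPKM. Ndufb8, an accessory subunit of the membrane arm, had 250 FPKM. Among the assembly factors Ndufaf1 had 7.29 FPKM, Ndufaf2 had 12.2 FPKM and Ndufaf4 had 23.0 FPKM.

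In complex II 1 subunit stood above the other 3. The membrane anchor Sdhc had 249 FPKM, while the flavoprotein Sdha had 56.5, the iron-sulfur subunit Sdhb 68.4 and the other anchor Sdhd 64.9 FPKM. In complex III the core proteins Uqcrc1 and Uqcrc2 had 67.0 and 134 FPKM and the Rieske iron-sulfur protein Uqcrfs1 had 88.8 FPKM, against 646 FPKM for the small subunit Uqcrq. Uqcrq also varied between libraries, with a coefficient of variation of 25.03% over the 12 libraries against 5.98% for Uqcrfs1. In complex V the catalytic Atp5b had 327 FPKM and its partner Atp5a1 had 249 FPKM. The stalk subunits Atp5c1, Atp5d and Atp5o had 297, 105 and 452 FPKM. Atp5a1 was the most even gene of the 89, with a coefficient of variation of 4.92%.

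The paralogs with a restricted tissue, known from heart, skeletal muscle, lung or testis, were low with 1 exception. The lung isoform Cox4i2 made up at most 0.230% of the summed FPKM of Cox4i1 and Cox4i2, and the muscle isoform Cox6a2 at most 0.342% of its pair. Cox7b2, Cox8b, Cox8c and Ndufa4l2 stayed under 0.103% of their sets in every library. Cox7a1, the heart and muscle isoform, passed the filter at 0.708 to 4.46 FPKM and made up 0.238% to 1.53% of the Cox7a set, in which Cox7a2 held 76.4% to 82.4%. The exception was Cox6b2, known as the testis isoform of the subunit Cox6b1.

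Cox6b2 read 166, 202 and 117 FPKM in untreated control, 142, 184 and 209 FPKM in untreated SMA, 74.0, 212 and 129 FPKM in treated control and 168, 154 and 199 FPKM in treated SMA libraries. Its share of the summed Cox6b1 and Cox6b2 FPKM was 17.7% to 34.6%. The 4 groups overlap, and treated control library 1 was the lowest. The 5 testis markers, among them Tnp1 and Prm2 at 0 in every library, did not exceed 0.512 FPKM. Over their coding sequences Cox6b1 (chr7:30616974-30626151) and Cox6b2 (chr7:4751792-4753094) were identical at 158 of 316 aligned bases, and neither had a near-identical copy in GENCODE M21.

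Short genes of this pathway have many processed pseudogenes, and reads from near-identical copies can be split between them. Of the 94 members with a coding transcript, 20 had at least 1 other GENCODE gene with 95% identity or more over at least 80% of the coding sequence, 38 such copies in all, of which 36 are processed pseudogenes. The tables held 32 of the copies, belonging to 19 members, and in 10 members the copies together had more FPKM than the gene itself. Cox7c, a small complex IV subunit, had 105 FPKM and its 2 copies had 597 FPKM together. Atp5g2, which encodes subunit c of the ATP synthase, had 87.3 FPKM, and its copies Gm10175 and Gm10231, both identical to it over all 441 coding bases, had 180 and 209 FPKM. The deposited locus of Atp5g2, chr15:102663014-102667749, is that of a GENCODE transcript of 441 bases with no untranslated part, so its FPKM rests on bases that both copies share. The level of these genes is therefore uncertain, while Atp5g2 kept 17.5% to 19.2% of the sum with its copies in every library.

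**Figure D2:**
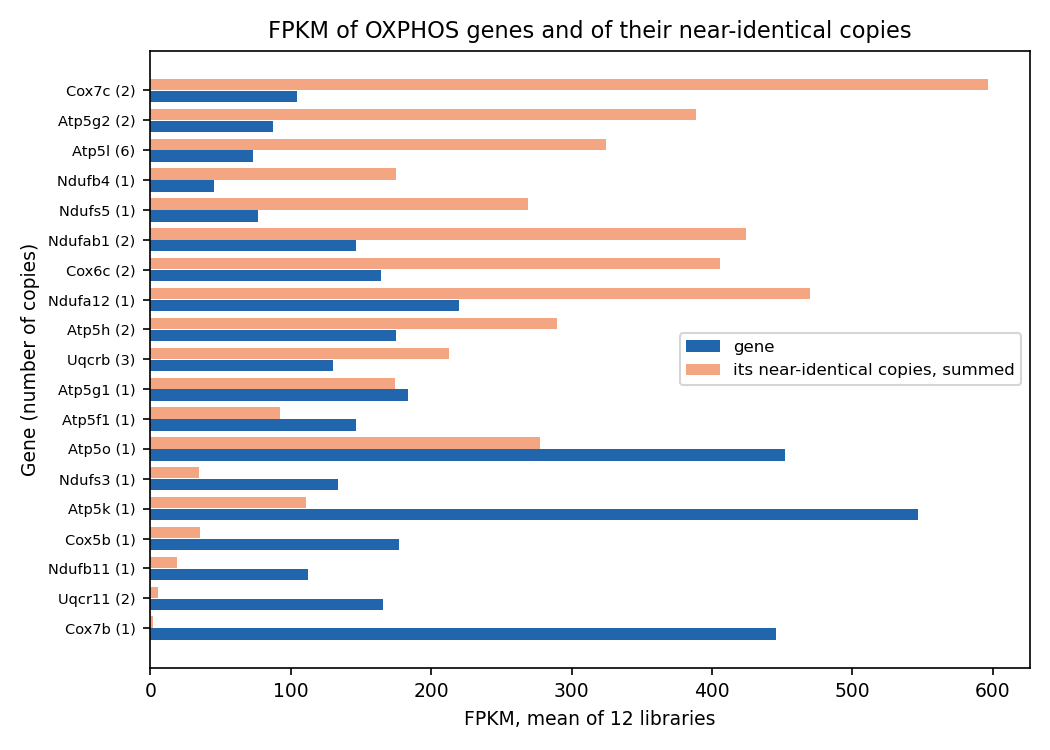
Bars give the mean FPKM over 12 libraries of 19 genes (blue) and of their near-identical copies, summed (orange), with the number of copies in brackets. In the upper 10 genes, from Cox7c to Uqcrb, the copies exceed the gene.

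Atp5l (chr9:44913250-44920742), subunit g of the synthase, and Atp5l2 (chr11:97768060-97768371) show how close such copies are. Their coding sequences were identical at 310 of 312 bases, and the first 150 bases from the GENCODE M21 transcripts are shown with the 1 difference they hold in capitals, because reads from this sequence are hard to assign.
Atp5l: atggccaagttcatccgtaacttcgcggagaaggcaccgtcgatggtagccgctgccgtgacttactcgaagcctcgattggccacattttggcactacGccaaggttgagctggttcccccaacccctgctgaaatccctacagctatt
Atp5l2: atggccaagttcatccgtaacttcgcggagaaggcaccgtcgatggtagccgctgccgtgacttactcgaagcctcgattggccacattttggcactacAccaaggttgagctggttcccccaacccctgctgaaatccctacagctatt
A read from the coding sequence that misses both the capital base and the other difference fits both genes equally. Atp5l had 73.1 FPKM and Atp5l2 had 101 FPKM, and the 6 copies of Atp5l summed to 324 FPKM.

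The 3 genes of subunit c encode the same mature protein from different coding sequences, so reads can be told apart among Atp5g1 (chr11:96068852-96075670), Atp5g2 and Atp5g3 (chr2:73908447-73911326). The last 150 coding bases of each are shown because the balance of the 3 genes is described further on, with the bases that differ from Atp5g1 in capitals.
Atp5g1: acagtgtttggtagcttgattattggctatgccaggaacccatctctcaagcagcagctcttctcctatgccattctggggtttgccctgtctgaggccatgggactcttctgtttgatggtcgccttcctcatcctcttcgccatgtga
Atp5g2: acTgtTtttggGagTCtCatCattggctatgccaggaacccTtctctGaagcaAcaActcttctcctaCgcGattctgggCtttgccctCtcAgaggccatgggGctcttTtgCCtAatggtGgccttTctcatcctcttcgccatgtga
Atp5g3: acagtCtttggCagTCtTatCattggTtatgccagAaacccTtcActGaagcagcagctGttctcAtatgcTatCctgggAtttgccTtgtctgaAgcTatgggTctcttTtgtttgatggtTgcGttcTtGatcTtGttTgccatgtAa
In this stretch Atp5g2 differed from Atp5g1 at 23 bases and Atp5g3 at 29 bases. Atp5g1 also has a copy, Gm10039, with 175 FPKM against 183 FPKM for the gene.

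The genotype comparison asks what loss of mouse Smn goes with. With both treatments averaged, Atp5g2 rose in SMA cultures and no other of the 89 genes passed the threshold, a Benjamini-Hochberg adjusted p under 0.05 over 14982 genes in limma. Over all genes tested, 4.83% were called, 3.03% higher and 1.8% lower, so the members' share was below the background. Atp5g2 read 95.6, 72.5 and 58.4 FPKM in untreated control and 94.8, 84.9 and 97.6 FPKM in untreated SMA libraries. With R-Roscovitine it read 56.2, 75.4 and 79.1 FPKM in control libraries, against 120, 103 and 111 FPKM in SMA libraries. The untreated groups overlap through control library 1, and the treated groups do not overlap. The difference was 0.52 ± 0.12 (SE) on the log2(scaled FPKM + 1) scale, with an adjusted p of 0.0360 in limma. By treatment it was 0.36 ± 0.17 (SE) without and 0.68 ± 0.17 (SE) with R-Roscovitine, and the interaction of 0.33 was not called.

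The copies had similar values, of which Gm10175 passed the threshold: limma gave 0.47 ± 0.12 (SE; adjusted p = 0.0453) for Gm10175 and 0.45 ± 0.13 (SE; adjusted p = 0.0637) for Gm10231, and the sum of the 3 gave 0.47 ± 0.12 (SE; adjusted p = 0.0489). Which of the 3 loci the reads came from cannot be told apart. The call rests on a few libraries. It was lost when any 1 of 7 libraries was left out (untreated control 2 or 3, untreated SMA 1 or 3, treated control 1, treated SMA 1 or 3), and when same-numbered treated and untreated libraries of a genotype were averaged first (adjusted p = 0.163). With that averaging limma called 0 genes higher and 1 lower among the 14982 tested, against 454 and 269 without it. The background of 4.83% thus also depends on counting same-numbered libraries as separate. So do the SE and adjusted p of the other averaged genotype differences given here. Over all 12 omissions of 1 library the difference of Atp5g2 was 0.43 to 0.60.

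Over the 89 genes the genotype difference was small and not of one sign. Averaged over treatment, its median was 0.06, with 56 of 89 genes positive, against a median of -0.01 and 7239 of 14982 positive over all genes tested. By complex the medians were 0.02 for I, 0.02 for II, 0.11 for III, 0.11 for IV and 0.11 for V. The medians of the libraries within a group varied with an SD of 0.11 on this scale, about as much. By limma 11 genes had an unadjusted p under 0.05, and 9 of these were positive, where 3483 of the 14982 genes tested had one, a larger share.

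The extremes by complex show the size of the differences. Ndufc2, an accessory subunit of the membrane arm of complex I, had the highest value of its complex, 0.36 ± 0.10 (SE; adjusted p = 0.0604 in limma). Its levels were 140, 137 and 148 FPKM in untreated control and 189, 146 and 186 FPKM in untreated SMA libraries. With R-Roscovitine they were 147, 138 and 146 FPKM in control libraries, against 226, 160 and 181 FPKM in SMA libraries. The treated groups do not overlap, and in the untreated ones SMA library 2 lay within the control range. Ndufa8, an accessory subunit that faces the intermembrane space, had the lowest value of complex I, -0.15 ± 0.08 (SE). It read 71.9 to 88.9 FPKM in untreated control and 63.4 to 67.4 FPKM in untreated SMA libraries, which do not overlap, and 74.3 to 80.6 against 68.1 to 74.7 FPKM with R-Roscovitine, which do.

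Atp5b, the catalytic beta subunit of complex V, was the 1 member whose genotypes did not overlap in either treatment. It read 382, 366 and 333 FPKM in untreated control and 305, 303 and 304 FPKM in untreated SMA libraries. With R-Roscovitine it read 349, 347 and 335 FPKM in control libraries, against 290, 293 and 314 FPKM in SMA libraries. In each treatment every SMA library was below every control library, a pattern that 2.86% of all genes tested showed. The averaged difference was -0.19 ± 0.07 (SE), with an adjusted p of 0.115 in limma. It passed the limma threshold with quantile normalization (adjusted p = 0.0486), with a common FPKM sum (adjusted p = 0.0479) and with library weights (adjusted p = 0.0386). Atp5b did not pass with same-numbered treated and untreated libraries averaged first, where limma called 0 genes higher and 1 lower among 14982. Nor did Atp5b pass with the replicate number as a block. Its partner Atp5a1 differed by 0.04 ± 0.07 (SE).

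In complex II the flavoprotein Sdha had the lowest value of all 89 genes, -0.25 ± 0.11 (SE; adjusted p = 0.198 in limma), and the assembly factor Sdhaf1 had 0.23 ± 0.10 (SE). In complex III Uqcr11, a small subunit, had 0.40 ± 0.16 (SE; adjusted p = 0.161), and Uqcrb had -0.09 ± 0.17 (SE). Sdha read 55.9, 64.1 and 64.0 FPKM in untreated control and 63.9, 43.6 and 51.4 FPKM in untreated SMA libraries. With R-Roscovitine it read 68.0, 61.9 and 57.0 FPKM in control libraries, against 56.2, 47.0 and 44.5 FPKM in SMA libraries. The treated groups of Sdha do not overlap, while untreated SMA library 1 lies among the controls. Uqcr11 ranged from 103 FPKM in treated control library 1 to 230 FPKM in treated SMA library 3, and its untreated groups overlap. In complex IV the extremes were Cox7a1 with 0.45 ± 0.27 (SE) at its low level, and Cox7a2 with -0.12 ± 0.10 (SE). None of these passed the threshold. Beside these comparisons the astroglia markers were higher in every untreated SMA library (479 to 1108 against 231 to 337 FPKM; treated, 336 to 930 against 266 to 345 FPKM, which overlap). Progenitor markers, 8 of 8 tested, summed to 158 to 169 FPKM in control and 205 to 224 FPKM in SMA libraries untreated, and to 119 to 160 and 171 to 215 FPKM treated, without overlap in either. Single markers did not all go with these sums. Nes and Pax6 among progenitor markers, and Aldoc and Aqp4 among astroglia markers, overlapped between genotypes in both treatments. The mean of Nes was lower in SMA (55.4 against 57.7 FPKM untreated, 51.6 against 55.3 treated). Fabp7, at 165 to 854 FPKM, was the largest part of the astroglia sums. Neuron markers summed to 764 to 1120 FPKM in untreated control and 647 to 754 FPKM in untreated SMA libraries, and overlapped with R-Roscovitine. The mean depth was lower in SMA libraries. The part of any of these in the values was not tested. In bulk cultures, fewer cells of a type and less RNA per cell cannot be told apart.

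**Figure D3:**
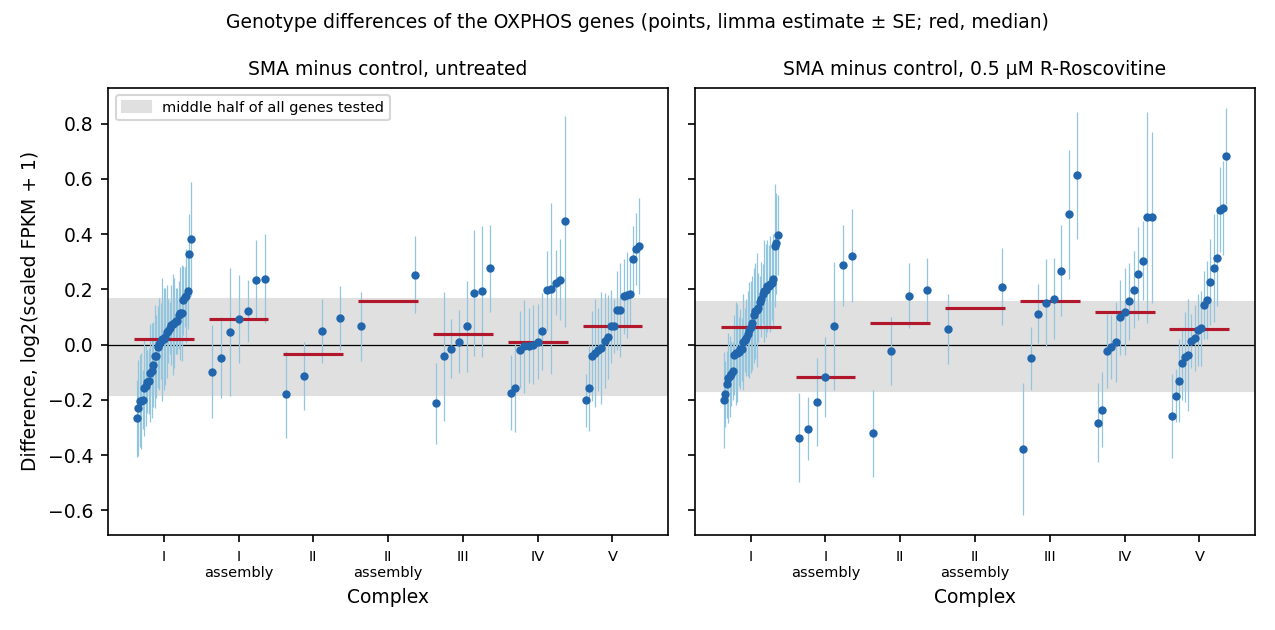
Points are the limma differences, SMA minus control, of the 89 tested genes with their SE, by complex, without treatment (left) and with R-Roscovitine (right); red lines are medians and the grey band runs from the lower to the upper quartile of all genes tested. Points lie on both sides of 0 in both panels, and more of them lie above the band with R-Roscovitine than without.

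Within each treatment no member was called in either genotype comparison by limma, where 0.00667% of genes tested, Smn1 alone, were called. Without treatment 3 of 89 members had an unadjusted p under 0.05, against 2114 of 14982 genes tested, and the median difference was 0.05 (55 of 89 positive). With R-Roscovitine 6 did, against 1941 of 14982 genes, and the median was 0.08 (58 of 89 positive). In both treatments the members' share was below that of all genes. Among the 3 were Atp5f1 and Atp5h, subunits b and d of the peripheral stalk that holds the synthase together. Atp5f1 read 125, 132 and 146 FPKM in untreated control and 168, 158 and 159 FPKM in untreated SMA libraries. Atp5h read 141, 171 and 148 FPKM in untreated control and 207, 172 and 190 FPKM in untreated SMA libraries. Both stood apart without treatment, Atp5h by 171 against 172 FPKM in its nearest libraries, and overlapped with it. Near-identical copies summed to 92.7 FPKM for Atp5f1 (mean of the gene, 146.7) and to 290 FPKM for Atp5h (175). With the copies added, the untreated differences were 0.29 ± 0.12 (SE) for Atp5f1 and 0.23 ± 0.12 (SE) for Atp5h, neither called. The interaction values of Atp5f1 and Atp5h without copies, -0.17 ± 0.17 (SE) and -0.29 ± 0.18 (SE), were not called (adjusted p = 1 for both in limma).

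Counting genes whose genotypes do not overlap gave different pictures by treatment. Without treatment SMA was higher in 4 of 89 members (4.49%), where the background was 7.78% of genes tested, and lower in 2 (2.25%), where it was 12.5%. With R-Roscovitine SMA was higher in 18 members (20.2%), where the background was 8.9%, and lower in 6 (6.74%), where it was 8.87%. The 18 hold Atp5e, Atp5g2, Atp5g3 and Atp5o of complex V, Cox4i1, Cox5a and Cox6b1 of complex IV, Uqcr10 and Uqcr11 of complex III and Sdhc of complex II. The rest are Ndufa7, Ndufa12, Ndufab1, Ndufb8 and Ndufc2 of complex I and the assembly factors Ndufaf3, Ndufaf5 and Sdhaf1. The untreated count depended on control library 1: without it 17 members (19.1%) were higher in SMA, where the background was 13.5%, and the treated count without treated control library 1 was 21 (23.6%), where it was 12.5%. Members higher without overlap in both treatments numbered 0, where the background was 2.47%.

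Of the single genes behind the treated count, Atp5e, the epsilon subunit, read 360, 422 and 436 FPKM in treated control and 621, 484 and 591 FPKM in treated SMA libraries. Untreated, its control libraries read 564, 438 and 386 FPKM and its SMA libraries 548, 452 and 511 FPKM. The treated groups do not overlap, and untreated control library 1 lies above all untreated SMA libraries. Its averaged difference was 0.33 ± 0.11 (SE; adjusted p = 0.0954 in limma).

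Among the 3 subunit c genes the FPKM shares of Atp5g1 and Atp5g2 did not overlap between genotypes in either treatment, which was not tested. Atp5g1 read 233, 190 and 148 FPKM in untreated control and 162, 154 and 172 FPKM in untreated SMA libraries, and Atp5g3 read 679, 534 and 435 FPKM and 495, 554 and 683 FPKM. As levels these groups overlap widely. As a share of the 3 genes' summed FPKM, Atp5g1 made up 23.0% to 23.9% in untreated control and 18.1% to 21.6% in untreated SMA libraries, and 23.1% to 23.7% and 18.9% to 21.1% with R-Roscovitine. The control shares lay within 1 percentage point of each other, and every SMA library was below every control library.

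Atp5g2 took 8.78% to 10.1% of the sum in the 6 control libraries and 10.2% to 12.6% in the 6 SMA libraries, again without overlap. The nearest 2 were treated control library 3 and untreated SMA library 3. Their ranges from the FPKM intervals, 9.11% to 11.1% and 9.31% to 11.2%, overlap widely. Atp5g3 held most of the sum, 66.6% to 68.1% in control and 65.8% to 71.7% in SMA libraries, which overlap. With the copies added to each gene, the direction between genotypes held for Atp5g1 and Atp5g2. Atp5g1 with its copy had 27.4% to 29.4% in control and 21.4% to 24.9% in SMA libraries, and Atp5g2 with its copies had 29.7% to 32.4% and 33.5% to 39.6%. The order of the genes did not hold, since Atp5g2 with its copies lay above Atp5g1 with its copy. Atp5g3 then had 39.8% to 41.9% in control and 37.2% to 44.05% in SMA libraries, which overlap. These shares were described after the values were known and were not tested. On the log2 scale the averaged genotype difference was 0.04 ± 0.11 (SE) for Atp5g1, 0.52 ± 0.12 for Atp5g2 and 0.31 ± 0.12 for Atp5g3, of which limma called Atp5g2; the value of Atp5g1 turned to -0.02 with a common FPKM sum and to -0.03 with its copy added.

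**Figure D4:**
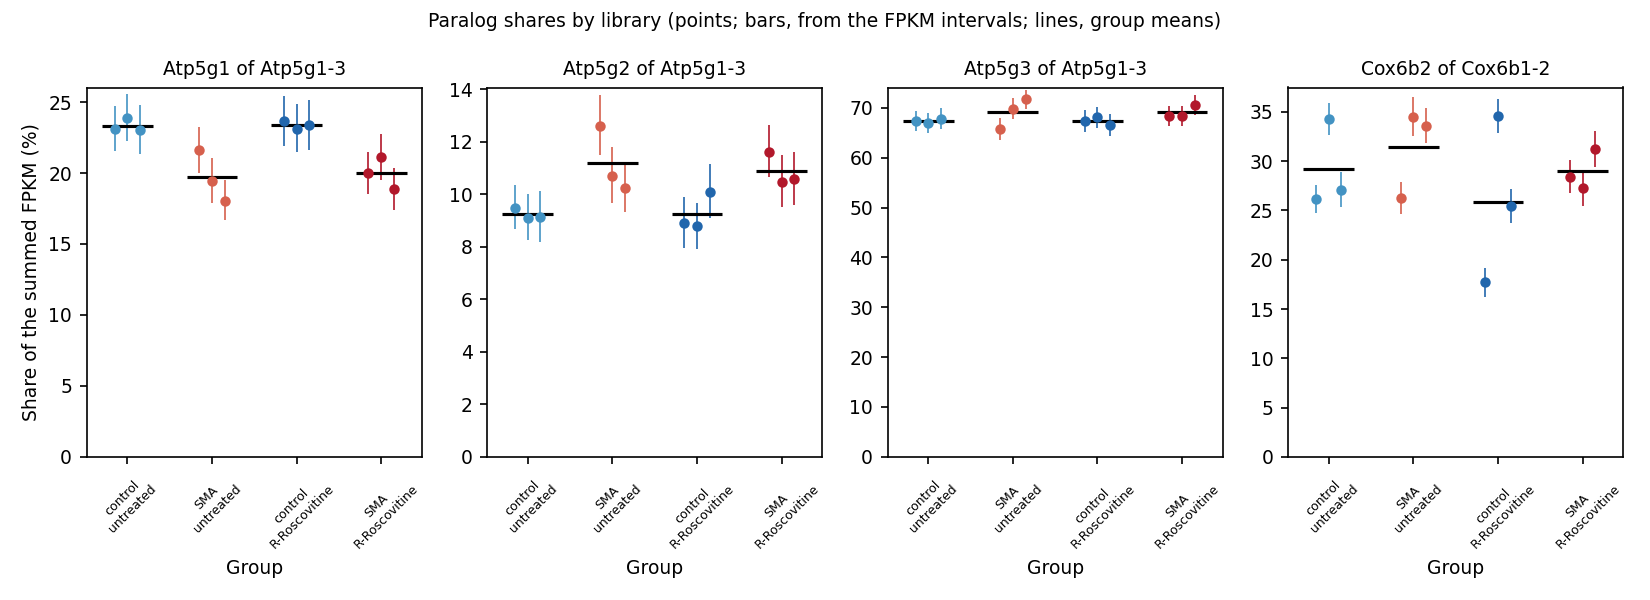
Points give the share of 1 paralog in the summed FPKM of its set in each library, with bars from the FPKM intervals and a black line at the mean of each group of 3 libraries. Atp5g1 is lower and Atp5g2 higher in the SMA groups, Atp5g3 and Cox6b2 overlap between genotypes, and the low point of Cox6b2, 17.7%, is treated control library 1.

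Among the Cox7a genes the shares of Cox7a2 and Cox7a2l were apart between genotypes with R-Roscovitine and overlapped without it, while that of Cox7a1 overlapped in both. Cox7a2l, a factor that joins complexes III and IV into supercomplexes, took 18.7% to 20.1% of the set in untreated control and 19.0% to 20.5% in untreated SMA libraries. With R-Roscovitine it took 17.3% to 19.4% in control and 21.9% to 22.7% in SMA libraries, which do not overlap. Its own level, 55.5 ± 1.71 FPKM in treated control and 59.1 ± 6.83 FPKM in treated SMA libraries (SD, n = 3), overlaps, and Cox7a2 was lower in treated SMA, at 205 ± 28.2 against 244 ± 25.6 FPKM (SD, n = 3). This difference between treatments was not tested.

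The treatment comparison asks what R-Roscovitine does in each genotype. No member passed the threshold in control cultures, in SMA cultures or averaged over genotype, and limma called 0% of the 14982 genes in each. Members with an unadjusted p under 0.05 numbered 1, 0 and 1, and over all genes tested 188, 360 and 244. The median difference of the members was -0.02 in control (38 of 89 positive), 0.03 in SMA (53 of 89 positive) and 0.01 averaged (47 of 89 positive). The interaction, the R-Roscovitine difference in SMA minus that in control, called 0% of genes as well, with a median of 0.04 in the members and 3 of them, Ndufaf4, Ndufaf2 and Cox6c, at an unadjusted p under 0.05, against 286 of 14982 genes tested.

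Ndufaf4, a factor for an early step of complex I assembly, was the 1 member with an unadjusted p under 0.05 in control cultures. It read 22.2, 17.9 and 21.8 FPKM in untreated and 26.6, 27.5 and 28.3 FPKM in treated control libraries. In SMA cultures it read 22.8, 23.2 and 19.6 FPKM untreated and 21.8, 22.3 and 21.3 FPKM treated. The control groups do not overlap, and all 3 treated control libraries were above every SMA library. Ndufaf4 was named for its p in this same comparison, so the separation adds no support. The share of all genes tested whose treated and untreated groups do not overlap was not counted. The differences were 0.43 ± 0.11 (SE) in control and -1.95e-05 ± 0.11 (SE) in SMA cultures, and the interaction was -0.43 ± 0.16 (SE), with an adjusted p of 1 in limma for each. Ndufaf2, a late assembly factor of complex I, had an interaction of -0.58 ± 0.23 (SE) and Cox6c, a small subunit of complex IV, one of -0.48 ± 0.20 (SE), neither called. In both, the R-Roscovitine difference was positive in control (0.23 and 0.17) and negative in SMA cultures (-0.35 and -0.30). Ndufaf2 read 10.9, 10.8 and 13.0 FPKM untreated and 15.6, 10.7 and 14.5 FPKM treated in control, and 15.4, 11.8 and 13.1 FPKM untreated and 11.3, 8.997 and 10.7 FPKM treated in SMA libraries. The treated and untreated SMA groups of Ndufaf2 do not overlap, and its control groups do. Treated control library 1 was the highest library in both genes. Cox6c has 2 near-identical copies that summed to 406 FPKM, against 164.5 FPKM for the gene. With them added its interaction was -0.42 ± 0.19 (SE), not called.

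Averaged over genotype, the extremes by complex were small. Ndufa2 had -0.21 ± 0.13 (SE) and Ndufaf4 had 0.21 ± 0.08 (SE) in complex I. Complex II ran from -0.04 (Sdhaf1) to 0.01 (Sdhb), and complex III from -0.02 (Uqcr10) to 0.06 (Uqcrq). In complex IV Cox6b2 had -0.16 ± 0.22 (SE) and Cox5a, a subunit on the matrix side, had 0.11 ± 0.10 (SE). In SMA libraries Cox5a read 330, 333 and 396 FPKM untreated and 452, 416 and 398 FPKM treated, which do not overlap. In control libraries it read 449, 353 and 301 FPKM untreated and 313, 366 and 358 FPKM treated, which do. How many of all genes tested have treated and untreated groups apart was not counted. In complex V Atp5l2 had -0.17 ± 0.12 (SE) and Atp5sl had 0.16 ± 0.14 (SE). Each adjusted p was 1 in limma, and in complexes II and III every value was below its SE.

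The differences went with the base composition of the transcripts. Across the 89 genes, whose transcripts have a GC content of 39.0% to 61.1%, the R-Roscovitine difference had a Spearman rho with GC content of -0.60 in control and 0.56 in SMA cultures, and the interaction one of 0.68. In control cultures 28 of 44 members below the median GC content of 51.0% were positive, against 10 of 45 at or above it. In SMA cultures it was 19 of 44 and 34 of 45. The genotype difference had a rho of -0.36 without and 0.53 with R-Roscovitine. These are descriptions across genes that share the same 12 libraries, and genes are not independent replicates.

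In control cultures the pattern went with single libraries. Against the mean of all libraries, the members' deviations in untreated control library 1 had a rho of 0.63 with GC content, those in untreated control library 3 one of -0.54 and those in treated control library 1 one of -0.57. The same 3 libraries gave 0.55, -0.34 and -0.24 over all genes tested with a known transcript, so the pattern was not limited to this pathway. SMA libraries 1 to 3 also deviated with GC content, with a members' rho of -0.49, -0.33 and 0.19 untreated and 0.14, 0.41 and 0.49 treated. Over all genes these libraries gave -0.40, -0.11 and 0.04 untreated and -0.08, 0.31 and 0.16 treated. Without the control libraries 1 of both treatments the rho in control cultures turned from -0.60 to 0.38, and that of the interaction went from 0.68 to 0.25, while that in SMA cultures does not use them. The rho of the genotype difference turned from -0.36 to 0.13 without treatment and went from 0.53 to 0.38 with R-Roscovitine. Untreated control library 1 also had the highest members' median, 0.18 above the mean of all libraries, and untreated control library 3 the lowest, -0.17. In untreated control library 1 Uqcrq, for example, read 1000 FPKM against 466 and 556 FPKM in the other untreated control libraries. Transcripts of the members were short, with a median of 763 bases against 2556 over all genes tested. Ndufaf4, with a GC content of 39.5%, is near the lower end of the members. The part of base composition in any single difference was not tested.

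**Figure D5:**
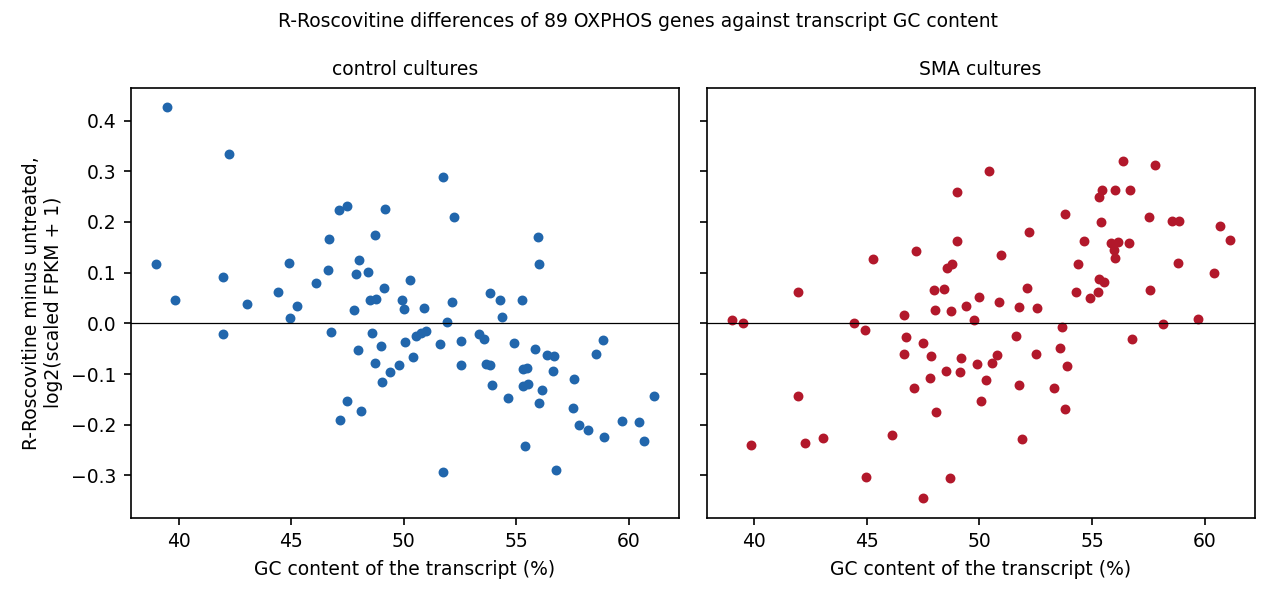
Each point is 1 of the 89 tested genes, with the GC content of its transcript against its R-Roscovitine difference in control (left) and SMA cultures (right). The cloud slopes down from left to right in control cultures and up in SMA cultures (Spearman rho -0.60 and 0.56).

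The promoters of respiratory genes are known to bind nuclear respiratory factor 1 (NRF1), the ETS factor GABP and YY1. Of the 95 members, 78 were matched to 84 promoters in the RefSeq table of GRCm38.p6, each with 250 bases before and 50 after the start. The NRF1 motif, GCGC, AT and GCGC in a row searched on both strands, was in 7 of the 78 members (8.97%) and in 1.07% of all genes in the table, and a looser form with any base in place of the A, which includes it, was in 19 members (24.4%) and 5.19% of genes. The ETS motif CCGGAAG was in 19 members (24.4%, against 9.93%), the YY1 motif AAGATGGC in 11 (14.1%, against 3.19%) and the SP1 motif GGGCGG in 36 (46.2%, against 38.2%). Promoters of the members were richer in GC, with a median of 58.5% against 52.7%. A match is a description of letters in this window and not of binding.

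Sequences are shown for the subunit c genes, whose shares were compared above without a test, and for Ndufaf4. With matches to the looser NRF1 motif, CCGGAAG and AAGATGGC in capitals, the 250 bases before the start follow. They are chr11:96075632-96075881 for Atp5g1, chr15:102671048-102671297 for Atp5g2, chr2:73911327-73911576 for Atp5g3, all on the minus strand, and chr4:24897833-24898082 on the plus strand for Ndufaf4.
Atp5g1: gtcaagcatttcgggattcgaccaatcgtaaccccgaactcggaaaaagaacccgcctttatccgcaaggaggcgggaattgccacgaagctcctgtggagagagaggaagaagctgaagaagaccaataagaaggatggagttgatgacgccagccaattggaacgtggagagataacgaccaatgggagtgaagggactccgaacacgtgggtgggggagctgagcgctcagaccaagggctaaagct
Atp5g2: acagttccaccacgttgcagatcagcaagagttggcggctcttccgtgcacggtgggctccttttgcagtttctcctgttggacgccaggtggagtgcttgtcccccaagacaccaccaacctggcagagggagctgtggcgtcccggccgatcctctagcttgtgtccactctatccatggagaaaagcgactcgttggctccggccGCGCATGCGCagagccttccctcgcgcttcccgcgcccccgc
Atp5g3: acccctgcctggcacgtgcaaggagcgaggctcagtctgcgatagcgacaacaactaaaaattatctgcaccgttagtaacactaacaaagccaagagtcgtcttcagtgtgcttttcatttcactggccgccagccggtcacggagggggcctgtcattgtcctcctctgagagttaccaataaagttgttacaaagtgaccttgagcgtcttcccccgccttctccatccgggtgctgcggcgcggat
Ndufaf4: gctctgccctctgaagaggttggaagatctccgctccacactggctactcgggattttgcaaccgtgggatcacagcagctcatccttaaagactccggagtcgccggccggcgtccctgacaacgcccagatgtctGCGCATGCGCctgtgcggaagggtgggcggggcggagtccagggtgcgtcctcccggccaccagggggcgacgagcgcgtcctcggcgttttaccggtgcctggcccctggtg
Atp5g2 and Ndufaf4 each hold 1 match to the full NRF1 motif, Atp5g1 holds none of the 3, and the 1 loose match of Atp5g3 lies in the 50 bases after the start. The RefSeq start of Atp5g2 lies outside its deposited locus.

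The regulators lay below most subunits. Nrf1 had 6.77 to 13.1 FPKM, Gabpa 23.1 to 37.6, Tfam, the packaging factor of mitochondrial DNA, 9.40 to 23.4, Esrra 3.53 to 7.15, and the coactivator Ppargc1a 9.88 to 18.2 FPKM. In control cultures Nrf1 read 9.87, 11.7 and 13.1 FPKM untreated and 6.77, 6.85 and 8.79 FPKM treated, which do not overlap, with a difference of -0.54 ± 0.17 (SE; adjusted p = 1 in limma). In SMA cultures it read 9.04, 9.41 and 10.49 FPKM untreated and 7.59, 10.03 and 12.7 FPKM treated. The share of all genes tested whose treated and untreated groups stand apart was not counted. Of 17 tested biogenesis regulators 0 were called in any of the 7 comparisons, where in the averaged genotype comparison 4.83% of genes tested were.

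The other genes of mitochondrial metabolism gave few calls. Of 41 further oxidative phosphorylation genes outside the name rule, among them cytochrome c (Cycs, 16.4 to 22.1 FPKM) and cytochrome c1 (Cyc1, 54.5 to 82.5 FPKM), 0 were called in any comparison, nor were any of 16 genes of the TCA cycle or 17 of glycolysis. Their median genotype differences averaged over treatment were -0.03, -0.07 and -0.06. Of 76 mitochondrial ribosomal proteins 1, Mrps17, was called lower in the averaged genotype comparison, and the median of the list was 0.07 with 57 of 76 positive. All 13 protein-coding genes of mitochondrial DNA had positive genotype differences, with medians of 0.26 without and 0.16 with R-Roscovitine, and 0 were called. Mitochondrial transcripts took 17.7%, 19.4% and 18.5% of the FPKM sum in untreated control and 23.0%, 19.3% and 20.4% in untreated SMA libraries. With R-Roscovitine they took 20.6%, 21.3% and 20.0% in control and 23.7%, 20.2% and 20.0% in SMA libraries. The genotypes overlap in both treatments, and SMA library 1 was the highest in each.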

How the data were processed

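Expression was measured by mRNA sequencing of 12 motoneuron culture libraries, prepared with a Lexogen kit per the labels' protocols. The authors deposited FPKM values per gene with Cufflinks intervals. The submitters' processing notes name Cufflinks 2.2.1, Trim Galore 0.4.0, FastQC 0.10.1 and the build GRCm38; for aligner settings, strand and annotation the labels and file headers give nothing. Depth was estimated from the steps between low FPKM values: at the chosen step 35.9% to 39.2% of them were whole reads within 0.01, against a median of 1.09% to 1.27% over the steps tried, so it is an estimate and no counts were recovered.

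Identifiers on several lines were summed. FPKM were scaled by medians of ratios, and log2(scaled FPKM + 1) was fitted with limma 3.58.1 (R 4.3.3, 2-sided, trended prior) over 14982 genes with at least 1 FPKM in at least 3 libraries, with small RNA genes left out and Benjamini-Hochberg adjustment over all of them. A fold on this scale understates changes of low genes. The fit was tested on simulated data with libraries drawn independently, which does not cover the pairing of same-numbered libraries. Named genes follow a rule: members past the threshold, the highest and lowest difference of each complex in the averaged comparisons, a set of core, accessory and assembly genes by role, paralogs, and 7 regulators and cytochromes. Atp5e, Atp5f1, Atp5h, Atp5l, Cox7c, Gm10175, Gm10231, Gm10039 and the members listed as not overlapping were named after their values were seen. The members, gene lists and markers were chosen with earlier results of these data known. Copies were found with BLAST+ 2.17.0 in GENCODE M21 transcripts, and promoters come from RefSeq (GRCm38.p6).

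Replicate numbers come from the labels. Same-numbered treated and untreated libraries of one genotype deviated together (correlations of 0.24 to 0.60), so the numbers pair libraries within a genotype. Across genotypes correlations ran from -0.06 to 0.32, not all over 0.1, and the numbers were not taken as pairs. They were 0.14 to 0.32 between untreated SMA and treated control libraries, and -0.06 to 0.14 between the untreated groups. Apart from the untreated groups, each library correlated better with its own number than with another. A link of the numbers across genotypes is therefore not excluded. Alternatives covered the pseudocount, filter, scaling, library weights, replicate block and leaving out libraries; adding copies and leaving out both control libraries 1 were chosen after seeing the data.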

Additional observations from a re-analysis of the deposited data

How the results depend on the processing

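Of the 7 comparisons, the number of members called moved in the averaged genotype comparison alone, from 1 (Atp5g2). It was 0 without a filter on low values and 2 with quantile normalization (Atp5g2 and Atp5b). A common FPKM sum without mitochondrial genes gave 2 as well (Atp5g2 and Atp5b), and library weights gave 6 (these and Atp5e, Atp5f1, Atp5g3 and Ndufc2). With the replicate number as a block, which the check of the numbers bore out only in part across genotypes, it was 2 (Atp5g2 and Ndufc2). With that block limma called 853 genes higher and 919 lower among the 14982 tested. With pairs formed within a genotype the number of members was 0. Leaving out 1 library gave 0 to 3. The cause was not tested. The other 6 comparisons had 0 members called under every alternative, the replicate block included. Every median of the members kept its sign or moved by less than the SD of library medians, 0.11. That SD exceeds each median, so a median can change sign under this rule. With 1 library left out, the R-Roscovitine median ran from -0.10 to 0.04 in control, -0.02 to 0.09 in SMA and -0.03 to 0.05 averaged. The untreated genotype median ran from -0.02 to 0.13, and that of the interaction from -0.008 to 0.13. The genotype medians with R-Roscovitine (0.05 to 0.15) and averaged (0.03 to 0.10) stayed positive.

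Values close to 0 changed sign. The R-Roscovitine difference of Ndufaf4 in SMA became 0.0001241 with a pseudocount of 0.1, 0.000427 without a filter, 0.005136 with a mean of at least 5 FPKM, 0.0003964 without scaling and 0.005973 with library weights, and ran from -0.072 to 0.044 with 1 library left out. Averaged over genotype, it became -0.006848 for Sdhb without scaling (-0.036 to 0.062 with 1 library left out). For Uqcr10 it became 0.001424 with quantile normalization, 0.086 with library weights and 0.0996 without both control libraries 1 (-0.084 to 0.092). For Sdhaf1 it became 0.026 with library weights and 0.0156 without both control libraries 1 (-0.084 to 0.0129), and for Cox6b2 0.0447 without them (-0.351 to 0.0332). Uqcrq ran from -0.046 to 0.211. The genotype difference of Atp5g1 became -0.0152 with a common sum and -0.027 with its copy added (-0.053 to 0.106). The cause was not tested. With 3 libraries per group the SE of single members was 0.07 to 0.27 in the averaged comparisons, 0.10 to 0.38 within a treatment or genotype and 0.13 to 0.54 in the interaction, and differences of several SE could miss the threshold, as Atp5b and Ndufc2 did.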
